A study of Mus musculus with 6 samples.

Results

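The genes described here encode Mincle, the dectins and related C-type lectin receptors of myeloid cells. The 10 genes were taken by symbol from a fixed list (Clec4d, Clec4e, Clec4n, Clec5a, Clec7a, Clec12a, Clec4a1, Clec4a2, Clec4a3 and Clec4b1), and all 10 were found among 25124 gene rows. They were measured by RNA-seq in 3 libraries of E4BP4 transgenic mice (TG) and 3 of wild type mice (WT). The cells were macrophages obtained by sorting the lamina propria of the colon, from C57BL/6 mice aged 8 weeks. E4BP4, the product of Nfil3, is a transcription factor of the basic leucine zipper kind, and the transgene is described as macrophage-specific, while the promoter that drives it is not given in the sources used here. All 6 samples share a colitis protocol in which dextran sulfate sodium was given at 2.0% in the water for 7 days, followed by 7 days without it and collection on day 14. No group without colitis is among these samples. The genotype field of TG replicates 2 and 3 carries another final digit in the gene name, and the titles, which name E4BP4 for all 3, were followed.

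C-type lectin receptors recognise sugars, glycolipids and other ligands of fungi, mycobacteria and damaged cells. Mincle, MCL and Dectin-2 signal through the ITAM adaptor FcRγ, Clec5a signals through the adaptor DAP12, and Dectin-1 carries an ITAM-like motif of its own. These routes meet at the kinase Syk and, for several of the receptors, at the CARD9, BCL10 and MALT1 complex, which turns on inflammatory cytokine genes. Clec12a and Clec4a2 instead carry an inhibitory motif (ITIM) that recruits phosphatases.

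Expression is given in TPM, a transcript level scaled for transcript length and library depth. The values of a library sum to between 543612 and 545319 rather than to 1e6, for a reason that is not known. All levels and limits in TPM given here are on that scale. Between 13.97 and 15.06 M (1e6) reads per library fell in genes. Whether each library is a separate mouse is not stated in the labels. The p-values therefore measure spread among these libraries alone, and that spread may be technical. Nfil3 itself was at 133, 134 and 141 TPM in TG libraries and at 117, 119.9 and 119 TPM in WT libraries (log2 fold change 0.19 ± 0.029 SE, limma adjusted p = 0.00261), and the 3 TG values were all above the 3 WT values. The macrophage markers Lyz2, Cd68, C1qa and Adgre1 were all well expressed, at 5945, 616, 3418 and 426 TPM in TG libraries and at 6669.6, 639, 3232 and 361 TPM in WT libraries.

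Of the 10 lectin genes, 6 were lower and 2 were higher in TG than in WT macrophages (limma on log2(TPM + 1), Benjamini-Hochberg adjusted p below 0.05). Among all 12633 tested genes 13.2% were lower and 8.71% were higher, 21.9% in all. With upper-quartile scaling the share of calls that were higher was 52.1% over all genes, against 39.8% with TPM as deposited, and for the lectins it gave 4 lower and 3 higher. The median log2 fold change of the 10 genes was -0.15, and that of all tested genes was -0.01. TG and WT libraries did not overlap for 9 of the 10 lectin genes, and for 39.3% of all tested genes. An exact permutation test on mean TPM (two-sided) gave 0.1 for each of those 9, and with 3 libraries a group p cannot be smaller. The falls were in Clec4d, Clec4e, Clec4n, Clec5a, Clec7a and Clec4a2, and the rises in Clec4b1 and Clec12a. Since these are bulk samples, fewer cells of a type and less RNA per cell cannot be told apart.

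**Figure D1:**
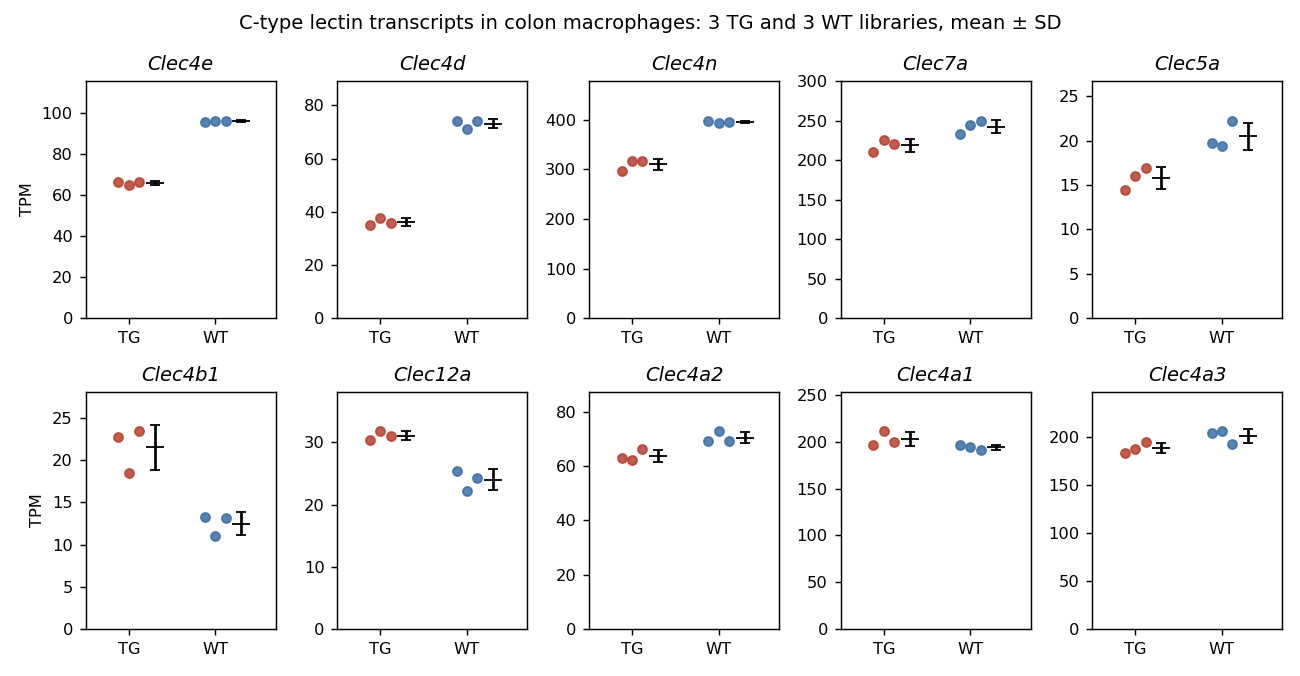
TPM of the 10 lectin genes in each TG and WT library (points), with the group mean ± SD (bar beside the points); every axis starts at 0. Clec4e stands at 64.7 to 66.3 TPM in TG and at 95.6 to 96.1 TPM in WT libraries, and the groups overlap for Clec4a3 alone.

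Clec4d, which encodes MCL, the partner of Mincle in binding mycobacterial cord factor, had the largest fall of the 10. It was at 35.0, 37.8 and 35.8 TPM in TG libraries, against 74.3, 71.1 and 74.0 TPM in WT libraries. All 3 TG libraries lay far below the lowest WT library, and the mean was 2.02-fold lower (log2 fold change -0.995 ± 0.040 SE, limma adjusted p = 3.64e-06). Falls of at least 2-fold with an adjusted p below 0.05 were found for 1.58% of all tested genes. Clec4d rested on 1859 reads over the 3 TG libraries and on 3654 over the 3 WT libraries. In the authors' deposited table its log2 fold change was -0.81 (adjusted p = 1.01e-66).

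Clec4e encodes Mincle, the receptor for mycobacterial cord factor and for the nuclear protein SAP130 released by dying cells. It was at 66.1, 64.7 and 66.3 TPM in TG libraries and at 95.6, 96.0 and 96.1 TPM in WT libraries. The libraries of each group lay close together, with a coefficient of variation of 1.35% in TG and 0.265% in WT. At 1996 to 3083 reads per library, the counting of reads alone would usually give a wider spread than that of WT. The mean fell by 31.5% (log2 fold change -0.54 ± 0.027 SE, limma adjusted p = 1.08e-05).

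Clec4n encodes Dectin-2, which binds fungal mannans, and it was the most abundant of the 10 transcripts in both groups. Its level was 297, 317 and 316 TPM in TG libraries, against 398, 393 and 396 TPM in WT libraries. It fell by 21.7% without overlap between the groups (log2 fold change -0.35 ± 0.027 SE, limma adjusted p = 9.3e-05). Clec5a, or MDL-1, the DAP12-coupled receptor, fell by a like proportion, 22.7%, from a far lower level: it was at 14.5, 16.1 and 16.9 TPM in TG and at 19.8, 19.4 and 22.2 TPM in WT libraries (log2 fold change -0.35 ± 0.075 SE, limma adjusted p = 0.0136). Its libraries varied more, with a coefficient of variation of 7.80% in TG and 7.65% in WT.

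Clec7a encodes Dectin-1, the receptor for fungal β-glucan. It was at 209.7, 225 and 221 TPM in TG libraries and at 233, 244 and 250.1 TPM in WT libraries, a fall of smaller size than those of Mincle and Dectin-2. The mean fell by 9.79% (log2 fold change -0.15 ± 0.036 SE, limma adjusted p = 0.0215). This call was lost with upper-quartile scaling (adjusted p = 0.0542), without the mean-variance trend (0.102), without TG replicate 1 or 3 (0.0551 and 0.0529) and without WT replicate 2 or 3 (0.0655 and 0.0685), while the sign was kept.

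Clec4d and Clec4e are neighbours on chromosome 6 and lie tail to tail. The 250 bases before each of their start sites (RefSeq, GRCm38.p6) are printed here because their transcripts fell the most. Clec4d is on the plus strand, with this window at chr6:123261857-123262106, and Clec4e on the minus strand, at chr6:123289872-123290121. Capitals mark, on either strand, the letters GAGGAA (core of the PU.1 site), TTGCNNAA (C/EBP), TTANGTAA (the element E4BP4 binds), TGANTCA (AP-1) and ACGTG (core of the hypoxia element). An NF-κB site was also searched for and was not found in the windows printed here, and no marked match overlaps another.
Clec4d: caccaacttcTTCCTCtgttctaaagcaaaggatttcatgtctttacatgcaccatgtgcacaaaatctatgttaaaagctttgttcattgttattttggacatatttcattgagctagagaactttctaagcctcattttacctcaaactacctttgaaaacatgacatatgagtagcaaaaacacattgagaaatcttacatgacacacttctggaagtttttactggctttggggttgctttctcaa
Clec4e: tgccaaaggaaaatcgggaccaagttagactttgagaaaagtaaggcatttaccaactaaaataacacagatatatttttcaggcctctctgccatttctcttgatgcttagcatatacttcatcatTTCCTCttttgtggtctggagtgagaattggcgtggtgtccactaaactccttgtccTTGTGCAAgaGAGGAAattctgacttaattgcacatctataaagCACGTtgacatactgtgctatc

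The Clec4e window held a C/EBP match that starts 66 bases before the start site, with PU.1 cores on both sides of it, starting at 123 and 56 bases, and a hypoxia core at 22 bases. The Clec4d window held a single PU.1 core, 240 bases before the start site. Over 32851 promoter windows of the same length (mouse chromosome 18 left out), 9.56% held the C/EBP letters, 23.3% the PU.1 core, 16.6% the hypoxia core, 6.75% the AP-1 letters and 2.06% the E4BP4 letters. A match describes the letters only, and binding was not measured in these samples.

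The genes that rose were Clec4b1 and Clec12a. Clec4b1, also called DCAR, encodes an FcRγ-coupled receptor for mycobacterial mannosides, and it was the least abundant of the 10 in WT libraries. Its level was 22.7, 18.5 and 23.4 TPM in TG libraries, against 13.3, 11.0 and 13.2 TPM in WT libraries. Replicate 2 was the lowest in both groups, and the lowest TG value still exceeded the highest WT value. The mean was 1.73-fold higher (log2 fold change 0.74 ± 0.105 SE, limma adjusted p = 0.0021), from 567 reads over the TG libraries and 318 over the WT libraries. Of its distinct 50-base windows, over all annotated transcripts, 8.68% also occur in transcripts of Clec4a2. Whether reads were exchanged between these genes was not tested.

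Clec12a encodes MICL, an ITIM receptor that recognises uric acid crystals of dead cells and restrains myeloid activation. It was at 30.3, 31.8 and 31.1 TPM in TG libraries and at 25.5, 22.2 and 24.3 TPM in WT libraries, without overlap. The mean was 1.29-fold higher (log2 fold change 0.36 ± 0.056 SE, limma adjusted p = 0.0031). The windows before both start sites are given for comparison with those of the genes that fell, with capitals as above. Both genes are on the plus strand, and the windows are at chr6:129349994-129350243 for Clec12a and chr6:123049712-123049961 for Clec4b1.
Clec12a: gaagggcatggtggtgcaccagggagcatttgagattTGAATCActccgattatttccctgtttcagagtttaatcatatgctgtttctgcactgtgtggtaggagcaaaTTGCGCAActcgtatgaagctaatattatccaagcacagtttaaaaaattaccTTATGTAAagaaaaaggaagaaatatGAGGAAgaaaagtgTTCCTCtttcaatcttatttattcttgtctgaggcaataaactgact
Clec4b1: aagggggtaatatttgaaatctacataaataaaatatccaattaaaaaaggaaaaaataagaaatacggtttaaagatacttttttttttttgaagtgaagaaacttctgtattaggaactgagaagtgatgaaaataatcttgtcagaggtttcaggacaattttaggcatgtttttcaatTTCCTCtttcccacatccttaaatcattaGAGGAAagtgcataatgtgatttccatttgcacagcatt

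The Clec12a window held the E4BP4 letters, as TTATGTAA, 87 bases before the start site. None of the other 8 windows had these letters. The same window held a C/EBP match at 140 bases, an AP-1 match at 213 bases and PU.1 cores at 61 and 47 bases. The Clec4b1 window held PU.1 cores at 68 and 39 bases, and no other marked letters. A RefSeq window was found for 9 of the 10 genes, Clec4n being the exception, and PU.1 cores were found in 7 of those 9.

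Clec4a2 encodes DCIR, an ITIM receptor that damps dendritic cell activation. It was at 62.8, 62.1 and 66.2 TPM in TG libraries and at 69.2, 72.8 and 69.4 TPM in WT libraries. It fell by 9.56% (log2 fold change -0.14 ± 0.037 SE, limma adjusted p = 0.03). The call was lost with upper-quartile scaling (adjusted p = 0.085), without the mean-variance trend (0.0918) and when any library but TG replicate 3 was left out (0.0506 to 0.0974). Of the ITIM receptors among the 10, Clec12a thus rose and Clec4a2 fell. Of the distinct 50-base windows of Clec4a2, 6.83% also occur in transcripts of other genes. The largest shares were 3.85% with Clec4a4 and 2.30% with Clec4b1. Clec4a4 was expressed at 1.67 TPM in TG and at 1.104 TPM in WT libraries.

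Clec4a1 and Clec4a3, which the files also name Dcir4 and Dcir3, did not pass the test. Clec4a1 was at 197, 211 and 201 TPM in TG libraries and at 197, 195 and 191 TPM in WT libraries (log2 fold change 0.06 ± 0.030 SE, 95% interval -0.01 to 0.13, limma adjusted p = 0.183). The lowest TG library exceeded the highest WT library by little, 196.8 against 196.6 TPM. Clec4a1 was called with upper-quartile scaling (adjusted p = 0.0456). Clec4a3 was at 183, 188 and 194 TPM in TG libraries and at 204, 206 and 192 TPM in WT libraries, with overlapping groups (log2 fold change -0.09 ± 0.034 SE, 95% interval -0.17 to -0.01, limma adjusted p = 0.0992). It was called without WT replicate 3 (adjusted p = 0.0425) and in the authors' deposited table (log2 fold change -0.14, adjusted p = 0.00182), where 9 of the 10 lectin genes and 24.4% of all genes with a fold change had an adjusted p below 0.05.

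**Figure D2:**
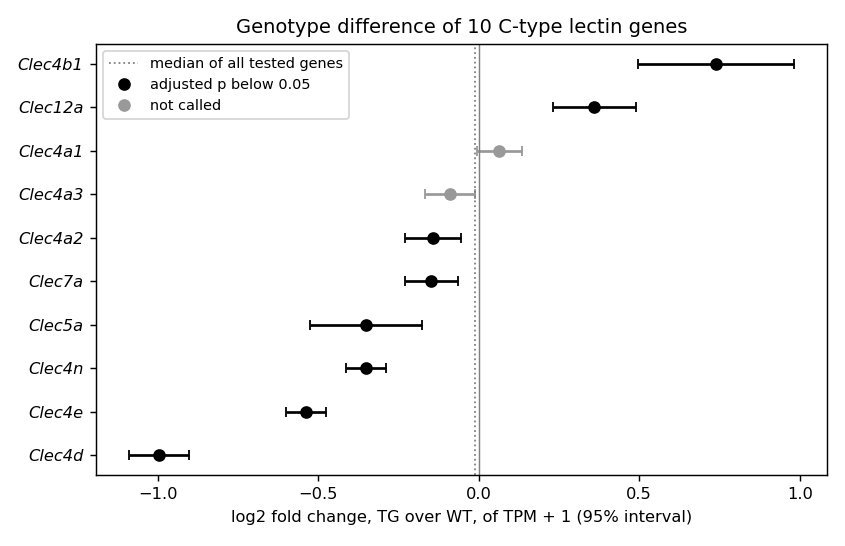
Log2 fold change of TPM + 1, TG over WT, with its 95% interval from limma, for the 10 lectin genes in order of size (black where adjusted p is below 0.05); the dotted line is the median of all tested genes, -0.01. The estimates run from -0.995 for Clec4d to 0.74 for Clec4b1.

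Per length, the 10 transcripts summed to 1118 to 1173 TPM in TG libraries and to 1328 to 1330 TPM in WT libraries. Clec4n gave 26.9% of that sum in TG and 29.8% in WT libraries. In TG libraries the levels ran Clec4n, Clec7a, Clec4a1, Clec4a3, Clec4e, Clec4a2, Clec4d, Clec12a, Clec4b1 and Clec5a, from 309.9 to 15.8 TPM. In WT libraries they ran Clec4n, Clec7a, Clec4a3, Clec4a1, Clec4e, Clec4d, Clec4a2, Clec12a, Clec5a and Clec4b1, from 396 to 12.5 TPM. The libraries of Clec7a and Clec4a1 overlapped in TG, as did those of Clec4e and Clec4a2. In WT the overlapping neighbours were Clec4a3 and Clec4a1, Clec4d and Clec4a2, and Clec12a and Clec5a. All other neighbours in the order were apart in all libraries of the group.

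MCL and Mincle form complexes with each other, and their transcripts did not fall in proportion. There was 0.551 ± 0.029 TPM of Clec4d per TPM of Clec4e in TG libraries and 0.763 ± 0.019 in WT libraries (SD, n = 3 each). Between the activating receptor Mincle and the inhibitory DCIR, the level of Clec4e per Clec4a2 was 1.03 ± 0.026 in TG and 1.36 ± 0.037 in WT libraries (SD, n = 3 each). The level of Clec7a per Clec12a was 7.04 ± 0.109 in TG and 10.1 ± 0.918 in WT libraries (SD, n = 3 each). These ratios combine values already tested and carry no test of their own.

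All 10 genes lie on chromosome 6 (mm10), in 3 places. Clec5a stands apart from the rest, at 40574898 to 40585805. Clec12a (129350244 to 129365303) and Clec7a (129461591 to 129472785) bound a cluster of 123 kb with 6 gene rows, in which Clec12b and Clec1a were below 1 TPM in both groups. The other 7 lie within 368 kb that holds 9 gene rows, from Clec4a1 (122921848) to Clec4e (123289871), and all but Clec4e are on the plus strand. The remaining rows of this stretch are Clec4a4 and Clec4b2, which was listed at 0 in the WT libraries and averaged 0.0483 TPM in TG libraries.

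Along this stretch the log2 fold changes were 0.06 for Clec4a1, -0.09 for Clec4a3, 0.74 for Clec4b1, -0.14 for Clec4a2, -0.35 for Clec4n, -0.995 for Clec4d and -0.54 for Clec4e. The 3 genes that fell the most in this stretch, Clec4n (123229843 to 123247024), Clec4d (123262107 to 123275268) and Clec4e (123281789 to 123289871), are adjacent, with gaps of 15.1 kb and 6.52 kb between them. Clec4b1 (123049962 to 123071555), the gene with the largest rise, lies between Clec4a4 and Clec4a2 in the same stretch. No gene of another symbol overlaps the exons of any of the 10 in the GENCODE M21 annotation, on either strand. For Clec4d, Clec4e, Clec5a, Clec7a, Clec4a1 and Clec4a3 no 50-base window was shared with a transcript of another gene, and for Clec4n and Clec12a the share was 0.686% and 0.457%.

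**Figure D3:**
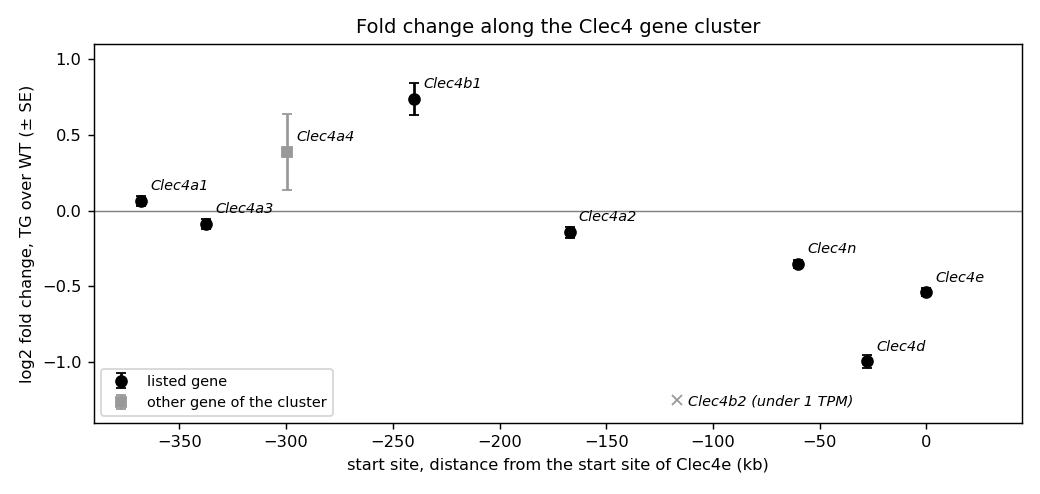
Log2 fold change of TPM + 1, TG over WT (± SE), against the distance of each start site from that of Clec4e in kb, for the 368 kb stretch with 7 of the lectin genes (black) and its other rows (grey; the cross marks a gene under 1 TPM, placed at the bottom with no fold change). The 3 adjacent genes at the right end, Clec4n, Clec4d and Clec4e, have the lowest values, and Clec4b1 has the highest.

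The genes whose pattern over the 6 libraries was nearest to a lectin gene were sought among 4154 genes of at least 20 TPM, by Euclidean distance between log2(TPM + 1) values centred on each gene's mean. For Clec4d they were Slc16a3, the lactate exporter gene, Vegfa, the vascular growth factor gene, and Fabp5, a fatty acid binding protein gene, at distances of 0.0823, 0.0949 and 0.14. Slc16a3 was at 41.3 ± 1.95 TPM in TG and 83.3 ± 1.33 TPM in WT libraries (SD, n = 3 each). For Clec4e they were Col3a1 and Col1a2, which encode fibrillar collagen chains, and Hnrnpab, at 0.0456, 0.0607 and 0.0547. For Clec7a they were Ptpn6, Ift22 and Txndc17, at 0.0443, 0.0446 and 0.049, and for Clec4a2 Eef1g, Mark2 and Hspa4, at 0.0366, 0.0408 and 0.048. A small distance requires a like fold change, such as -0.997 for Slc16a3 and -0.979 for Vegfa beside -0.995 for Clec4d. Shared regulation was not tested.

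The signalling partners of the receptors moved by less than the lectins at the ends of the range. Of 20 tested adaptors, kinases and CARD9-module genes, 5 fell, 2 rose and 13 did not pass the test, with a median log2 fold change of -0.06. Among all tested genes 13.2% fell and 8.71% rose, and the counts of this and every later list stand beside those shares. Whether any list differs from them was not tested. Fcer1g, the FcRγ adaptor, was at 1112 ± 36.1 TPM in TG and 1219.7 ± 21.0 TPM in WT libraries (SD, n = 3 each), a log2 fold change of -0.13 (limma adjusted p = 0.00672), a call lost without the mean-variance trend (0.0933). Malt1, the paracaspase of the CARD9 module, fell by 0.25 (0.0111), and the Src-family kinase genes Fgr and Lyn fell by 0.18 and 0.09. Syk was at 144 ± 1.65 TPM in TG and 133 ± 4.49 TPM in WT libraries (SD, n = 3 each) and rose by 0.11 (limma adjusted p = 0.0336), a call lost without any library but WT replicate 2 (0.0672 to 0.0998). Prkcd, a kinase that links Syk to CARD9, rose by 0.07 (0.0429), and this call was lost when any library was left out. Tyrobp, which encodes DAP12, Card9 and Bcl10 did not pass the test, with log2 fold changes of -0.05, -0.12 and -0.11 (limma adjusted p = 0.175, 0.153 and 0.167). The call of Fgr was lost with upper-quartile scaling (adjusted p = 0.0575), without the trend (0.0738) and without TG replicate 1 or 2 or WT replicate 1 or 2 (0.0661 to 0.0750). That of Lyn was lost with upper-quartile scaling (0.163), without the trend (0.178) and without any library but WT replicate 3 (0.0512 to 0.0939). Rises in this list numbered 0 to 2 and falls 2 to 4 when single libraries were left out, and 0 to 3 and 1 to 6 over all 13 alternatives, with 1 fall and 0 rises without the trend.

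Of 7 genes of ITIM-recruited phosphatases and related inhibitory proteins, 2 rose and 1 fell. Ptpn6, which encodes SHP-1, had a log2 fold change of -0.13 (limma adjusted p = 0.0155), a call lost without the trend (0.102), TG replicate 3 (0.0528) or WT replicate 2 or 3 (0.0501 and 0.0537). Ptpn22, a tyrosine phosphatase, and Dok1, an adaptor, rose by 0.29 and 0.19 (limma adjusted p = 0.00552 and 0.0275), and the call of Dok1 was lost without the trend (0.0645) and without any library but WT replicate 2 (0.0623 to 0.0835). Inpp5d, which encodes SHIP1, was at 114 ± 2.78 TPM in TG and 107 ± 2.02 TPM in WT libraries (SD, n = 3 each; limma adjusted p = 0.0808), and was called higher with upper-quartile scaling (0.0199) and with limma-voom on rebuilt reads (0.00201).

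Of 16 transcription factor genes, those of these pathways and Nfil3, 5 fell and 4 rose. Cebpb, which encodes C/EBPβ, a factor known in mouse macrophages to act on the Mincle gene, had the largest fall of the list. It was at 543 ± 18.4 TPM in TG and 900 ± 65.9 TPM in WT libraries (SD, n = 3 each; log2 fold change -0.73, limma adjusted p = 5.78e-05). Spi1, which encodes PU.1, fell by 0.20 on the log2 scale, Nfkb2 fell by 0.25, Hif1a fell by 0.19 and Rel fell by 0.12. Irf4 and Nfatc2 rose by 0.45 and 0.37, beside Irf5 and Nfil3. Nfil3 encodes the factor of the transgene that defines the TG group, so its rise is no separate result about these pathways. Cebpa, a relative of Cebpb, was at 203 ± 8.62 TPM in TG and 187 ± 6.62 TPM in WT libraries (SD, n = 3 each; limma adjusted p = 0.0662), and Rela at 69.3 and 71.9 TPM (0.468).

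Genes known to be induced through these receptors moved in both directions, 9 of 21 falling and 8 rising, with a median log2 fold change of 0.05. The inducible nitric oxide synthase gene Nos2 fell by 2.02 on the log2 scale, and the chemokine gene Cxcl3 fell by 2.13. Il1b, Il1a and Acod1, the itaconate-producing enzyme gene, fell by 0.23, 0.53 and 0.64. Egr1 rose by 0.30, and the cytokine genes Il6, Il12b and Il10 rose by 1.34, 0.71 and 0.21. Among these 9 genes Il12b had the highest adjusted p (limma, 0.00305). Tnf was at 131 ± 2.31 TPM in TG and 127 ± 1.97 TPM in WT libraries (SD, n = 3 each; limma adjusted p = 0.197), and was called higher with upper-quartile scaling (0.0435). Rises in this list numbered 5 to 8 when single libraries were left out, 5 without TG replicate 3 or WT replicate 3, and 4 without the trend.

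**Figure D4:**
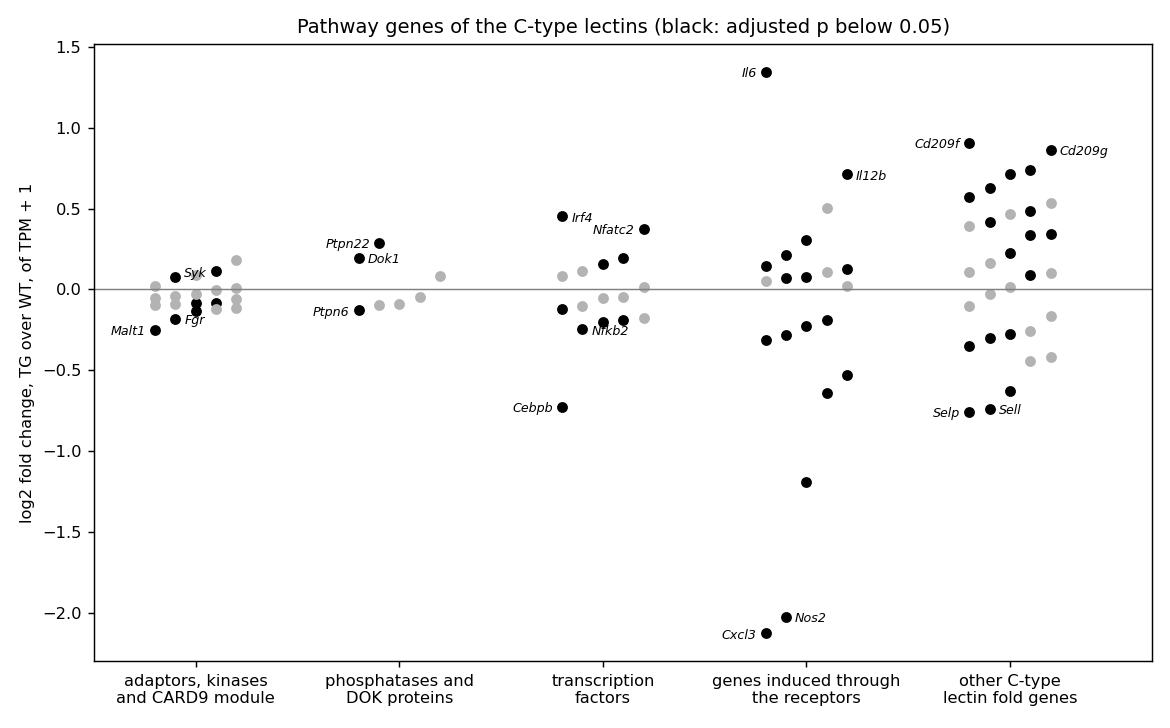
Log2 fold change of TPM + 1, TG over WT, of each tested gene in 5 lists (points; black where adjusted p is below 0.05, grey otherwise; sideways spread only separates points). Adaptors and kinases lie within 0.3 of 0, while Cebpb, Nos2 and Cxcl3 are far below it.

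Of 43 further genes in the table that were listed as other C-type lectins, 31 were tested. Of these, 12 rose and 6 fell, with a median log2 fold change of 0.11. The list also holds the selectin ligand gene Selplg, which rose by 0.22, and Clec16a, neither of which encodes a C-type lectin fold. Cd209f and Cd209g, of the DC-SIGN family, rose by 0.91 and 0.86, the galactose lectin genes Mgl2 and Clec10a by 0.41 and 0.34, and Klrb1b and Clec2i by 0.74 and 0.71. Mrc1, the mannose receptor gene, was at 393 ± 0.63 TPM in TG and 389 ± 2.17 TPM in WT libraries (SD, n = 3 each; limma adjusted p = 0.567). Whether the 10 genes and this list differ was not tested.

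Markers of other cells moved in the same libraries, in which 13.2% of all tested genes were lower and 8.71% were higher. Neutrophils are known to express several of the lectin genes, and of 18 tested neutrophil markers 14 fell and 0 rose. The 22 markers of that list summed to 642 to 692 TPM in TG and to 1369 to 1414 TPM in WT libraries. S100a8 and S100a9 were at 154 and 187 TPM in TG and at 409 and 439 TPM in WT libraries, while Csf3r was at 56.8 ± 1.69 TPM in TG and 58.9 ± 2.47 TPM in WT libraries (SD, n = 3 each; limma adjusted p = 0.428). The granule genes Mpo and Elane were below 0.1 TPM in both groups. The part of neutrophils in the falls and in the rises of the lectin genes was not tested.

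Of 13 monocyte markers 6 fell and 2 rose, and they summed to 1983 to 1995 TPM in TG and to 2456 to 2503 TPM in WT libraries. That difference was carried by Thbs1, at 517 ± 4.82 TPM in TG and 874 ± 5.04 TPM in WT libraries (SD, n = 3 each), and Hp, at 44.9 ± 1.47 TPM in TG and 189.7 ± 9.89 TPM in WT libraries (SD, n = 3 each). Ccr2, the chemokine receptor gene of these cells, was higher, at 143 ± 3.86 TPM in TG and 119 ± 1.38 TPM in WT libraries (SD, n = 3 each; limma adjusted p = 0.000487), and F13a1 was higher at 216 and 191 TPM (0.00158). With upper-quartile scaling, and with voom, 4 monocyte markers rose. Ly6c2, a defining marker of inflammatory monocytes, was at 13.4 ± 1.64 TPM in TG and 13.6 ± 2.16 TPM in WT libraries (SD, n = 3 each; limma adjusted p = 0.946). Of 15 macrophage markers 7 rose and 5 fell, and their sums were 19852 to 19943 TPM in TG and 20336 to 20576 TPM in WT libraries. Conventional dendritic cell markers, of which 3 of 11 tested rose and 1 fell, summed to 144 to 156 TPM in TG and to 116 to 123 TPM in WT libraries. Without WT replicate 2 the rises numbered 5, and without WT replicate 1 the falls numbered 2. Batf3 had the largest TPM difference of this list, at 57.3 ± 4.78 TPM in TG and 36.3 ± 1.41 TPM in WT libraries (SD, n = 3 each). Flt3 and Zbtb46 did not pass the test (limma adjusted p = 0.539 and 0.121). Plasmacytoid dendritic cell markers, of which 3 of 5 tested rose (1 with a filter of 5 TPM), summed to 71.4 to 75.5 TPM in TG and to 49.7 to 54.6 TPM in WT libraries. Siglech, a defining marker of those cells, was at 3.16 ± 0.495 TPM in TG and 0.737 ± 0.136 TPM in WT libraries (SD, n = 3 each). The largest TPM difference of that list was in Klk1, at 30.9 ± 1.45 TPM in TG and 14.3 ± 2.28 TPM in WT libraries (SD, n = 3 each). Ly6d and Tcf4 did not pass the test (limma adjusted p = 0.295 and 0.526). The dendritic cell sums stand beside the rises of Clec4b1 and Clec12a, and their part in them was not tested.

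Of the tested markers, 7 of 10 epithelial, 4 of 8 fibroblast and smooth muscle and 5 of 6 endothelial genes fell, and 0 rose in these 3 lists. The endothelial falls numbered 3 when any 1 of the TG replicates or WT replicate 1 was left out, and 2 with a filter of 5 TPM. The epithelial sum was 570.4 to 579 TPM in TG and 1031 to 1039.7 TPM in WT libraries, and that of fibroblast and smooth muscle markers, which stands beside the collagen genes near Clec4e, was 117 to 121 TPM in TG and 161 to 163 TPM in WT libraries. Eosinophil and mast cell markers had 1 rise each of 3 tested, Alox15 and Mcpt1 (2 mast cell markers without WT replicate 1), with the eosinophil peroxidase gene Epx at 0 in all 6 libraries. T, NK and innate lymphoid markers had 4 rises of 9 (2 with a filter of 5 TPM), and B and plasma cell markers 1 of 6 (with 1 fall without WT replicate 2).

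**Figure D5:**
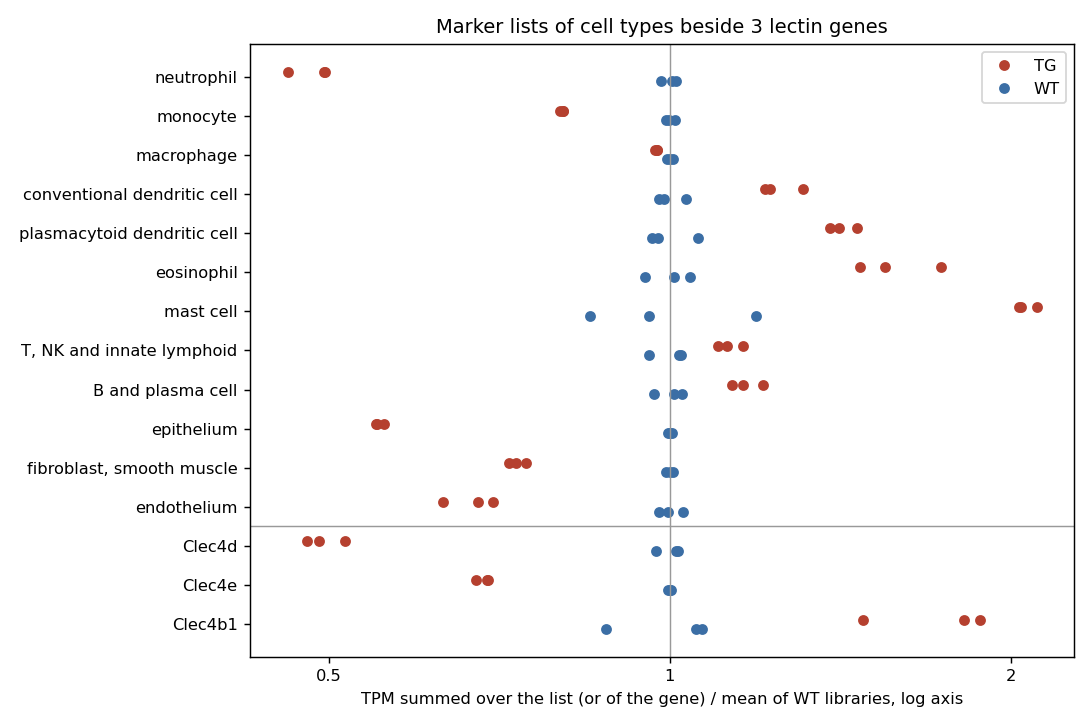
TPM summed over each list of cell type markers, and TPM of Clec4d, Clec4e and Clec4b1, divided by the mean of the WT libraries on a log2-spaced axis, for each TG and WT library (points). The neutrophil sum and Clec4d lie near 0.5 in TG libraries, and the epithelial sum, to which Car1 gives the largest part, at 0.55 to 0.56. Above 1 lie Clec4b1 and the sums of both dendritic cell lists and of the eosinophil, mast cell, T, NK and innate lymphoid, and B and plasma cell lists. The mast cell sum is the highest, at 2.03 to 2.11.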

How the data were processed

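The submitters' processing notes name bcl2fastq, STAR, HOMER 4.11.1, DESeq2 and the mm10 build, without their order or settings. The authors deposited TPM for 25124 genes, per the file headers. They also deposited a table of 24421 rows with log2 values for each library, log2 fold changes and p-values with their adjusted form, of which 3537 rows have no fold change. Lengths in that table are gene spans (100% of rows), so introns may count there, while TPM was scaled by exon length. The library kit is not described as keeping strand.

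Groups and replicate numbers came from the titles. The comparison of genotypes used limma-trend (version 3.58.1, R 4.3.3) on log2(TPM + 1), for 12633 genes that averaged 1 TPM or more in either group. This scale understates fold changes of low genes. The same fit was also run on simulated libraries. Their noise was scaled read sampling without spread between mice, so that run cannot show how the fit handles such spread. TPM times exon length fell into steps of whole reads (at least 99.9% of values up to 1000 reads in each library, within 0.1 reads). These steps gave 13.97 to 15.06 M (1e6) reads in genes, against 17.25 to 18.90 M in the headers. The share of 50-base windows counts distinct windows of all GENCODE M21 transcripts of a gene (GRCm38, the assembly of mm10) that recur in another gene, and the read length was not known. RefSeq promoter windows were matched by symbol for 9 of the 10 genes, and their start sites equal those of the deposited table.

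The 10 genes, gene lists, tests and motif letters were chosen with earlier results of these data known. The text names all 10 genes, fixed signalling genes, up to 6 genes per pathway list with the lowest p, the 3 genes nearest in pattern to each of Clec4d, Clec4e, Clec7a and Clec4a2, and defining markers. Prkcd, Irf5, Rel, Rela, Cebpa, Il6, Il10, Il12b, Tnf, Mrc1, Thbs1, Hp, Ccr2 and F13a1 were chosen after their values were seen. The same holds for Batf3, Flt3, Zbtb46, Klk1, Ly6d, Tcf4, Car1, Selplg and Clec16a. A gene counted in a list may not be reported here by name. Alternatives changed the pseudocount, filter, scaling, trend, a voom fit on the rebuilt reads, a replicate block and the libraries included.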

Additional observations from a re-analysis of the deposited data

How the results depend on the processing

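Over 13 alternatives, Clec4d, Clec4e, Clec4n, Clec5a, Clec12a and Clec4b1 kept their direction and an adjusted p below 0.05, and 4 to 6 of the 10 lectin genes were lower and 2 to 3 higher. Clec4d ranged from -1.03 to -0.96, Clec4e from -0.55 to -0.50 and Clec4b1 from 0.65 to 0.84 on the log2 scale. Over all genes, leaving out single libraries gave 704 to 883 higher, against 1100 with all libraries, and 1231 to 1373 lower, against 1666; the lowest counts of higher genes were without TG replicate 2 (704) and TG replicate 3 (721). With the limma-voom fit on rebuilt reads 1637 genes were higher and 2074 lower.

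Same-numbered TG and WT libraries showed no clear shared deviation (correlations -0.013, -0.043 and 0.032 for numbers 1, 2 and 3). Not every library correlated best with its own number. With 3 libraries a group, values this near 0 cannot exclude that the numbers pair the samples. A replicate block gave 922 higher and 1457 lower genes, and 2 higher and 5 lower lectin genes, with an adjusted p of 0.0623 for Clec4a2, 0.0556 for Fgr, 0.0516 for Syk and 0.0701 for Prkcd. The monocyte marker Ly6c2 had a log2 fold change of -0.02 (limma adjusted p = 0.946), and its sign turned with upper-quartile scaling (0.0195) and without TG replicate 2, WT replicate 2 or WT replicate 3, within a range of -0.141 to 0.0732 over the libraries left out. Clec4b1, with 95 to 211 reads per library, is the lectin gene most limited by depth.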
